A study of Arabidopsis thaliana with 12 samples.

Results

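The JAZ genes encode the repressors of the jasmonate response, and the 10 members measured here were taken by gene ID from the 32833 genes of the deposited table, namely JAZ1 (AT1G19180), JAZ2 (AT1G74950, TIFY10B in RefSeq), JAZ3 (AT3G17860), JAZ5 (AT1G17380), JAZ6 (AT1G72450), JAZ7 (AT2G34600), JAZ8 (AT1G30135), JAZ9 (AT1G70700, TIFY7 in RefSeq), JAZ10 (AT5G13220) and JAZ12 (AT5G20900). Their transcripts were read from RNA sequencing of Arabidopsis root tips in 4 groups of 3 libraries, ago10-1 with BAP, ago10-1 mock, Col-0 with BAP and Col-0 mock. The ago10-1 mutant carries a T-DNA insertion in AGO10 in the Col-0 background, and Col-0 is the wild type. BAP is the synthetic cytokinin 6-benzyladenine, sprayed at 1 µM onto seedlings 6 days after germination, and tips were taken 2 h later. The labels call the other plants mock, whereas the methods say that they were left untreated, so whether they were sprayed at all is not settled by these sources. If they were not, a difference after BAP cannot be told apart from one of the spraying. Values are normalized counts, the reads of a gene over the size factor of its library. A gene is called higher or lower where limma, a linear model with spread shared between genes, gave it an unadjusted p under 0.01, the threshold of the study, and errors are standard errors (SE) of 3 libraries against 3 unless all 12 are named. Values in a row follow replicates 1, 2 and 3, in Col-0 mock replicate 1 and libraries A and B, whose number the shared heading does not tell. In bulk tissue, fewer cells of a type and less RNA per cell cannot be told apart.

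JAZ proteins sit on MYC transcription factors and recruit co-repressors to them through the adaptor NINJA. When the hormone jasmonoyl-isoleucine accumulates, for example after wounding, it joins JAZ proteins to the receptor COI1, JAZ proteins are degraded and MYC factors become active. Most JAZ genes are themselves activated by MYC factors, so that new repressor is made while the response is running, and the JAZ transcript level is widely used as a readout of jasmonate signalling.

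MYC factors bind the G-box CACGTG, which reads the same on both strands, and its variant CACATG, read as CATGTG on the other strand. Promoters were taken from the RefSeq assembly TAIR10.1, whose nuclear coordinates are those of TAIR10, as the 250 bases before the annotated gene start. Windows of 9 members were searched, and 4 of the 9 held CACGTG (JAZ2, JAZ3, JAZ7 and JAZ8), against 7.24% of the 19155 tested genes with a full window. CACATG or CATGTG stood in 2 members (JAZ9 and JAZ10), against 11.02% of those genes, and an occurrence of one can overlap the other. In windows of 1000 bases, CACGTG stood in 7 of 9 members, against 15.8% of genes, and JAZ10 and JAZ12 held none. A match describes letters in a window and not a bound site. Promoters of 3 members are shown because they differ in motif and in transcript behaviour, with the motifs in capitals. The JAZ2 window (chr1:28150447-28150696, minus strand) has CACGTG 66 bases before the gene start, the JAZ3 window (chr3:6119457-6119706, plus strand) has it at 140 and 82 bases, and the JAZ9 window (chr1:26654279-26654528, plus strand) has CATGTG at 19 bases.
JAZ2: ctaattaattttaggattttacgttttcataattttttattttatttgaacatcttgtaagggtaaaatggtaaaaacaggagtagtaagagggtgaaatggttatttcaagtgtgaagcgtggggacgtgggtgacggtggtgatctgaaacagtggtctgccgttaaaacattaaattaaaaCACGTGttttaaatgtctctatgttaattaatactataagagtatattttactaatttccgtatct
JAZ3: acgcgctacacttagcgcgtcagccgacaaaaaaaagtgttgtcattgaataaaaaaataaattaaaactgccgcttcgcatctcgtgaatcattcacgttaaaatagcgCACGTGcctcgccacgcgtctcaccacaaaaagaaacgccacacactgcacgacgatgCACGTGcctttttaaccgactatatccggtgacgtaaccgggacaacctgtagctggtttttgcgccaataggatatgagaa
JAZ9: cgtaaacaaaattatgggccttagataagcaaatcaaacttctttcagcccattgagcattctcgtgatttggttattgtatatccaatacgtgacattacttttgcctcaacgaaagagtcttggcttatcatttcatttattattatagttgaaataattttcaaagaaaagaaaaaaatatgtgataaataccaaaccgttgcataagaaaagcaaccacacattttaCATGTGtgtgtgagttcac

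The members differed widely in level. Exon length was taken as every base that is exon in any RefSeq transcript of the gene. Per kilobase of exon, the mean over the 12 libraries was 817 normalized counts for JAZ12, 732 for JAZ1, 346 each for JAZ2 and JAZ3, 93.7 for JAZ9, 57.8 for JAZ10 and 49.7 for JAZ6, and it was 12.6 for JAZ7, 4.22 for JAZ8 and 4.05 for JAZ5. The order depends on this length. Without it, JAZ1 had a higher mean than JAZ12 (1320 against 884 normalized counts), and JAZ5 than JAZ8 (9.07 against 3.40). Not all neighbours in the order per kilobase were parted by their spread. JAZ12 lay above JAZ1 in 8 of 12 libraries, JAZ2 above JAZ3 in 5, JAZ10 above JAZ6 in 7 and JAZ8 above JAZ5 in 5, whereas JAZ1 lay above JAZ2, JAZ3 above JAZ9 and JAZ6 above JAZ7 in all 12. JAZ5 and JAZ8 had a mean under 10 normalized counts and were left out of the tests, so that 8 of 10 members were tested. JAZ7 stood just above this filter and passed it only through the group in which it is high, and 0 to 38 reads per library stand behind its values.

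In each of the 10 members the Col-0 mock group had the lowest mean. The ago10-1 mock group had the highest in JAZ1, JAZ2, JAZ5, JAZ6, JAZ9 and JAZ10, and in JAZ7, which passed the filter through that group. JAZ5, JAZ7 and JAZ8 rest on 0 to 38 reads per library. How many of all genes have these orders was not counted, and the members share the same 12 libraries, so the orders are a description only. The summed level of the 10 members was 4388, 4431 and 6052 normalized counts in the ago10-1 mock libraries, against 2595, 3489 and 3205 in the Col-0 mock libraries. After BAP the sums were 3832, 4073 and 4834 in ago10-1, against 4520, 3895 and 3408 in Col-0. The genotypes were thus apart in these sums without BAP and overlapped after it. Members of high level weigh most in such sums. JAZ1 gave 35.5% of the ago10-1 mock sum and 26.5% of the Col-0 mock sum. JAZ3 and JAZ12, whose mock libraries overlapped between genotypes, gave 18.7% and 17.7% in ago10-1 mock, and 27.9% and 26.7% in Col-0 mock. How many other gene sets part this way was not counted.

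**Figure D1:**
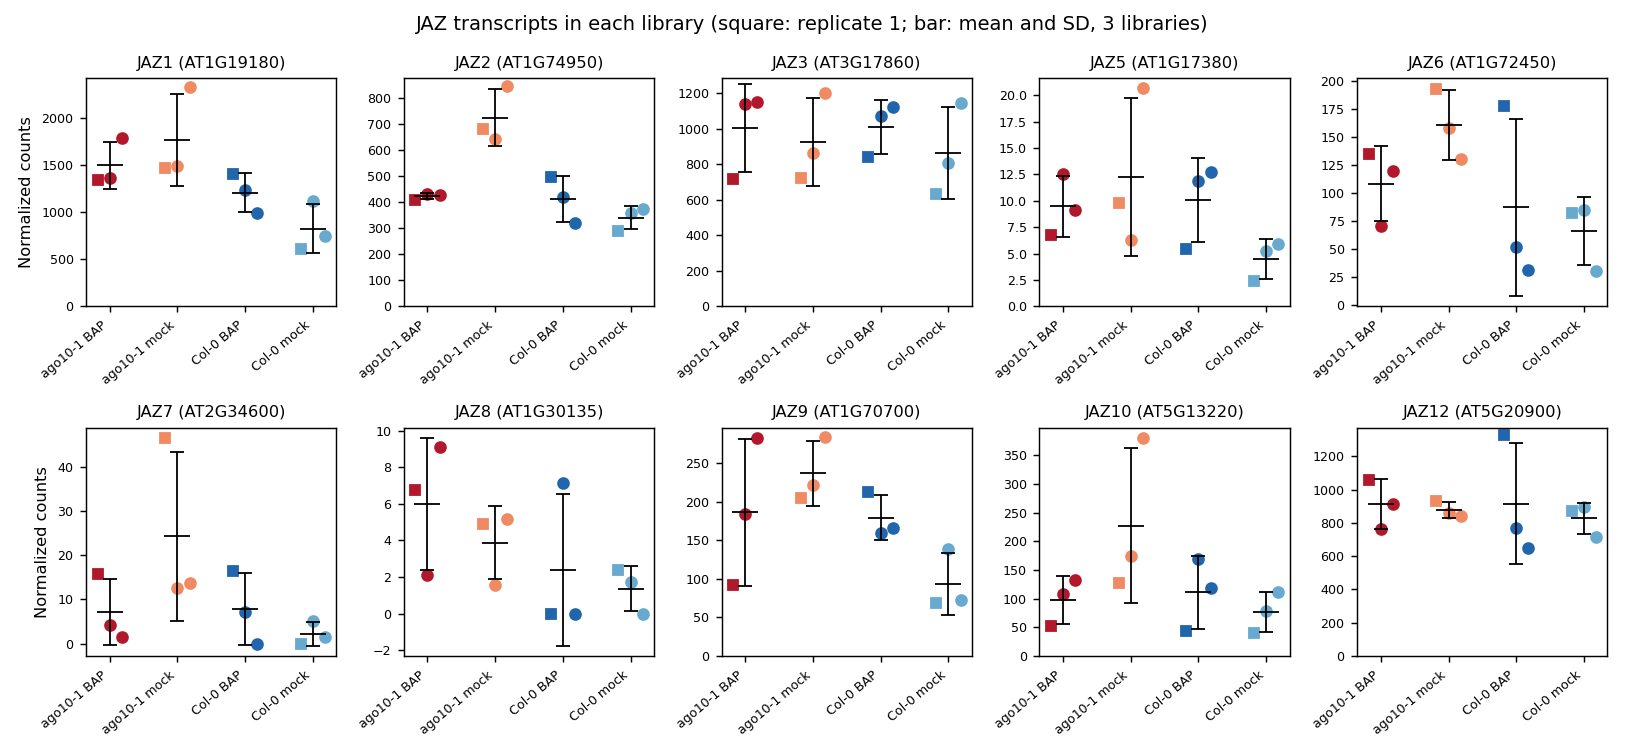
Normalized counts of each JAZ gene (y axis, linear) in the 12 libraries, in the groups ago10-1 BAP, ago10-1 mock, Col-0 BAP and Col-0 mock (x axis), with replicate 1 as squares and bars for the mean and SD of 3 libraries. JAZ2 in ago10-1 mock, at 643 to 849 normalized counts, lies above all 9 other libraries, and JAZ3 and JAZ12 overlap in all groups.

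The first comparison asked how loss of AGO10 altered the transcripts without BAP. JAZ7 reached the filter through its ago10-1 mock values, so it is kept out of the counts here and its values are given as a description. Of the 7 other tested members, 4 were called higher in ago10-1 mock than in Col-0 mock (JAZ1, JAZ2, JAZ6 and JAZ9) and none lower, against 0.307% of the 19206 genes tested that were called higher. The median log2 fold change of these 7 members was 1.11, and that of all genes tested was 0.0053. Every ago10-1 mock library lay above every Col-0 mock library for 5 of the 7, the 4 called and JAZ10, against 3.88% of genes, and for JAZ5 among the untested.

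JAZ2, a close paralog of JAZ1, had 684, 643 and 849 normalized counts in ago10-1 mock, against 289, 359 and 373 in Col-0 mock. The groups lay far apart, with the lowest mutant library at 643 and the highest wild-type library at 373. The log2 fold change was 1.09 with an SE of 0.16 (adjusted p = 0.299 from limma), and by its p JAZ2 ranked 9 among the 19206 genes.

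JAZ1, a well-studied substrate of the receptor COI1, had 1465, 1491 and 2327 normalized counts in ago10-1 mock, against 607, 1112 and 747 in Col-0 mock. Replicate 3 of the mutant stood well above the other mutant libraries, and the groups did not overlap. The log2 fold change was 1.11 (SE 0.26, called, adjusted p = 0.999 from limma).

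JAZ9, a repressor of the same clade as JAZ3, had 204, 221 and 284 normalized counts in ago10-1 mock, against 68.5, 139 and 72.3 in Col-0 mock, a log2 fold change of 1.39 (SE 0.30, called). JAZ3 itself, known from the dominant jasmonate-insensitive mutant jai3-1, had 719, 861 and 1200 normalized counts in ago10-1 mock, against 633, 809 and 1146 in Col-0 mock. Its libraries interleaved, and its log2 fold change of 0.11 had a 95% interval of -0.47 to 0.70.

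JAZ6, which carries an EAR motif that can bind co-repressors directly, had 193, 158 and 131 normalized counts in ago10-1 mock, against 82.7, 85.2 and 31.0 in Col-0 mock (log2 fold change 1.38, SE 0.40, called). JAZ5, its paralog, had 9.79, 6.32 and 20.7 normalized counts, against 2.36, 5.22 and 5.90, from 40 and 16 reads over the groups. Both genes were higher in every mutant library, for JAZ5 by less than 1 count at the nearest pair.

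JAZ7 and JAZ8 lack the canonical degron and so resist degradation. JAZ7 had 46.5, 12.6 and 13.8 normalized counts in ago10-1 mock, against 0, 5.22 and 1.47 in Col-0 mock, from 70 and 8 reads over the groups, with a log2 fold change of 3.09 (SE 0.88) on the scale of log2 normalized counts plus 1. It passed the threshold of a call, in a set that it entered through the same high values. JAZ8 had 4.89, 1.58 and 5.17 normalized counts, against 2.36, 1.74 and 0, and its groups overlapped. At 12 and 4 reads over the groups no difference of JAZ8 was detectable.

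JAZ10, a jasmonate-induced member known for splice variants of differing stability, had 127, 175 and 380 normalized counts in ago10-1 mock, against 40.2, 78.3 and 111 in Col-0 mock. The groups did not overlap, but replicate 3 stood far above the other mutant libraries, and the log2 fold change of 1.52 (SE 0.48) missed the threshold, at rank 115 among all genes. JAZ12, known to bind the ubiquitin ligase KEG, had 934, 862 and 842 normalized counts, against 868, 894 and 717, and its log2 fold change of 0.09 had a 95% interval of -0.18 to 0.37. Part of JAZ12 overlaps transcripts of the opposite strand (AT5G03235 and AT5G20910), and without a stated strand their reads cannot be told apart.

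JAZ2 and JAZ9 stayed called in all 16 alternatives of this comparison, and JAZ1 in all but that without a filter on low counts. With JAZ7 counted, 5 members passed, and this count became 2 with no filter, 3 in a fit over all 12 libraries, and 3 without ago10-1 mock replicate 2 or replicate 3 (JAZ1, JAZ2 and JAZ9). With replicate 1 set against the others as a replicate block it was 6, with JAZ10 added (SE 0.31), and 0.906% of genes were called there.

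**Figure D2:**
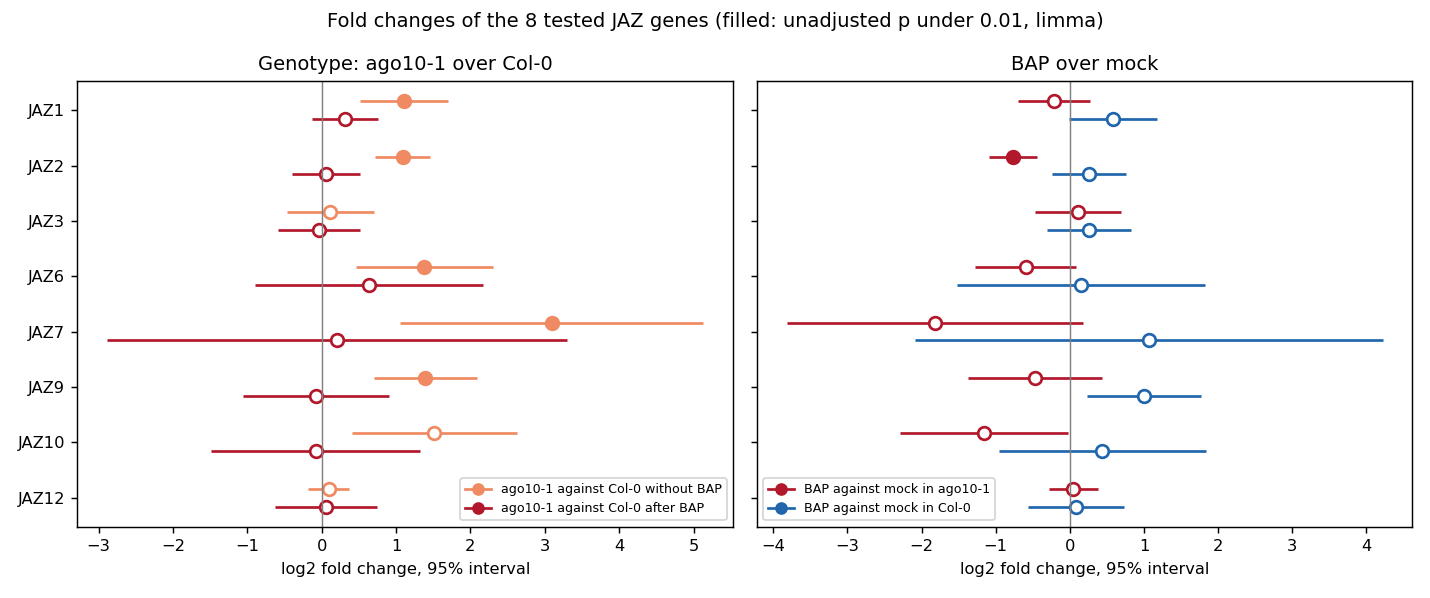
Log2 fold changes (x axis) with 95% intervals from limma for the 8 tested JAZ genes (y axis), left for ago10-1 over Col-0 without BAP and after BAP, right for BAP over mock in ago10-1 and in Col-0. Filled points passed an unadjusted p under 0.01, which are JAZ1, JAZ2, JAZ6, JAZ7 and JAZ9 for the genotype without BAP and JAZ2 for BAP in ago10-1.

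After BAP the genotypes were not told apart. No member was called, where 0.13% of genes were called in either direction, no member had groups that do not overlap with ago10-1 higher (1.97% of genes did), and the median log2 fold change of the 8 members was 0.06, against 0.01 for all genes. JAZ2 had 410, 433 and 429 normalized counts in ago10-1 BAP, against 497, 419 and 322 in Col-0 BAP. The mutant libraries fell inside the range of the wild type, and the log2 fold change of 0.06 had a 95% interval of -0.40 to 0.52. JAZ1 had 1340, 1355 and 1782 normalized counts in ago10-1 BAP, against 1399, 1229 and 986 in Col-0 BAP (log2 fold change 0.31, SE 0.19, not called). No member had an unadjusted p under 0.05 here, where 0.578% of genes did, and edgeR and DESeq2 called none. The intervals of JAZ6, JAZ7, JAZ9 and JAZ10 each extend past 1 on the log2 scale in at least 1 direction, so a 2-fold difference of these members after BAP lies within the error.

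In ago10-1, JAZ2 was lower after BAP than in mock and was the 1 member called, whereas 0.0937% of genes were called lower. It had 410, 433 and 429 normalized counts in ago10-1 BAP, against 684, 643 and 849 in ago10-1 mock, and these groups did not overlap, as for 4.59% of genes in this direction. The log2 fold change was -0.76 (SE 0.14, adjusted p = 0.908 from limma, rank 6 among all genes), and JAZ2 was called in every one of the 17 alternatives. In same-numbered libraries, JAZ1, JAZ2, JAZ6, JAZ9 and JAZ10 had lower values after BAP in 3 of 3 pairs, as had 17.3% of genes. Their log2 fold changes were -0.22, -0.76, -0.59, -0.47 and -1.16 in that order. For JAZ2 any pairing gives this, as its groups did not overlap. For JAZ9 the pair of replicate 3 was level, at -0.003 on the log2 scale. JAZ7 was lower as well (-1.82), but it entered the tested set through the high ago10-1 mock values compared here, so it is not counted. JAZ8, which was not tested, had 6, 2 and 12 reads in ago10-1 BAP, against 4, 2 and 6 in ago10-1 mock. These are too few to read a direction from. With the replicate number as a block, where 5.1% of genes were called, JAZ10 was called too (SE 0.21 in place of 0.48, adjusted p = 0.0791 from limma, 51.7 to 133 normalized counts in ago10-1 BAP against 127 to 380 in ago10-1 mock). With replicate 1 set against the others as a block, where 2.2% of genes were called, JAZ2 and JAZ10 were called. JAZ7 passed the threshold there too, with the same limit. JAZ3 and JAZ12 had log2 fold changes of 0.11 and 0.04.

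In Col-0, no member was called after BAP, where 0.151% of genes were called, and all 8 tested members had a positive log2 fold change, as did 51.9% of genes. Their median was 0.35, and without replicate 1 of both groups it was 0.097. Outside replicate 1, JAZ12 had 767 and 648 normalized counts in Col-0 BAP, against 894 and 717 in Col-0 mock. Only JAZ9 had groups that do not overlap with BAP higher, as did 2.96% of genes, with 212, 160 and 166 normalized counts in Col-0 BAP, against 68.5, 139 and 72.3 in Col-0 mock (log2 fold change 1.00, SE 0.32, not called). JAZ1 had a log2 fold change of 0.58 (SE 0.25, not called). In both genes Col-0 mock library A was the highest of its group, and without it JAZ1 (log2 fold change 0.82, SE 0.21) and JAZ9 (1.32, SE 0.26) were called, as were 0.26% of genes.

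The difference of the BAP responses, ago10-1 minus Col-0, was tested as an interaction over all 12 libraries. JAZ7 entered the tested set through its high ago10-1 mock values, which lower this difference, so it is left out of the count. The difference was negative in all 7 other tested members, with a median of -0.80 on the log2 scale. For all genes the median was 0.01, and 52.4% were positive. JAZ2 was called, where 0.0156% of genes were called lower. Its log2 fold change after BAP was -0.76 in ago10-1 and 0.26 in Col-0, a difference of -1.03 (SE 0.25), the smallest p of the 19206 genes, and yet it did not pass adjustment (adjusted p = 1 from limma). Without replicate 1 of every group the difference was -0.78 (SE 0.26), and no member was called. JAZ9 (-1.47, SE 0.54) and JAZ1 (-0.80, SE 0.35) missed the threshold, and without Col-0 mock library A both were called beside JAZ2, with 0.0364% of genes called. JAZ9 was also called without ago10-1 BAP replicate 3, and JAZ10 with replicate 1 set against the others as a block (-1.60, SE 0.42 in place of 0.84), where 0.0625% of genes were.

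As a mean over both treatments, ago10-1 was higher than Col-0 for JAZ1 (log2 fold change 0.71, SE 0.18) and JAZ2 (0.57, SE 0.12), and 0.5% of genes were called higher. Without replicate 1 of every group JAZ6 and JAZ9 were called as well, with 1.24% of genes called, and with replicate 1 set against the others as a block JAZ6 and JAZ10 were, with 1.59% of genes called. As a mean over both genotypes, BAP changed no member at the threshold, where 1.15% of genes were called. Leaving out JAZ7, whose high ago10-1 mock values lower this mean, 4 of 7 tested members were positive, as were 52.2% of genes. These comparisons share libraries. The ago10-1 mock libraries enter the genotype comparison without BAP, the BAP response of ago10-1 and the interaction, so their high values bear on all of these at once.

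At a Benjamini-Hochberg adjusted p under 0.05, limma called no member in any comparison. Of all genes it called 0.0156% for the genotype without BAP and 0.0208% for the mean genotype effect, and 0% in the other 5 comparisons. At an unadjusted p under 0.05, 5 of the 7 tested members other than JAZ7 passed for the genotype without BAP (2.08% of genes did), 4 for the mean genotype effect (2.73%), 3 for the interaction (0.463%), 2 for BAP in ago10-1 (4.13%) and 1 for BAP in Col-0 (1.18%). DESeq2 on the recovered reads called JAZ1 (adjusted p = 0.0218), JAZ2 (adjusted p = 1.67e-05) and JAZ9 (adjusted p = 0.0437) for the genotype without BAP, and JAZ2 for BAP in ago10-1 (adjusted p = 0.0151) and for the mean genotype effect (adjusted p = 0.0149), while edgeR called none at that level. Of all genes DESeq2 called 0.115%, 0.125% and 0.234% in these comparisons, in that order. In all other alternatives the adjusted p of these 5 results lay between 0.0606 and 1.

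Other genes of the pathway were counted by list. None of the 5 tested other TIFY family genes (JAZ4, JAZ11, PPD1 and others) and none of the 5 genes of the receptor and co-repressor complex (COI1, ASK1, NINJA, TPL and TPR1) was called in any of the 7 comparisons, and the medians for the genotype without BAP were -0.03 in both lists. MYC2, the main MYC factor, is listed at 0 in all 12 libraries. Its gene overlaps AT1G32630 on the opposite strand over 3241 of its 3289 bases. Whether reads were counted by strand, and how reads shared by genes were treated, is not given in the sources used here. The value of 0 is therefore not read as an absent transcript. Among the other MYC and JAM factors, JAM1 (AT2G46510), a repressor that competes with MYC factors for their targets, had 186, 182 and 229 normalized counts in ago10-1 mock, against 73.3, 78.3 and 76.7 in Col-0 mock. Its log2 fold change was 1.37 (SE 0.18, called, adjusted p = 0.294 from limma) without BAP and 0.08 after it, and the difference of its BAP responses was -1.28 (SE 0.36, called). Like JAZ2, JAM1 was called for the genotype without BAP and for the interaction, and not for the genotype after BAP.

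Of 9 tested jasmonate synthesis genes, 8 had a positive log2 fold change for the genotype without BAP and 1 was called (AOS), with a median of 0.17. Of all genes, 51.4% were positive in this comparison and 0.307% were called higher. AOS, which makes the allene oxide of the pathway, had 585, 584 and 731 normalized counts in ago10-1 mock, against 338, 423 and 445 in Col-0 mock, and was lower after BAP in ago10-1 (log2 fold change -0.68, SE 0.13, called). Of 7 tested genes of jasmonate turnover, 7 were positive and their median was 0.27, with no call there. CYP94B1, which oxidizes the active hormone, had a log2 fold change of 1.37 for BAP as a mean over genotypes (SE 0.32, called), and ST2A, which sulfates a jasmonate derivative, one of 0.52 for the mean genotype effect (SE 0.17, called). Among 11 listed output genes 4 were tested, of which 3 had a positive log2 fold change for the genotype without BAP and none was called, with a median of 0.93. VSP1, a storage protein gene induced by jasmonate, had a log2 fold change of 1.63 for the mean BAP effect (SE 0.41, called).

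Early wound response genes, which rise soon after tissue damage, were counted as well. All 9 tested ones were positive for the genotype without BAP, with a median of 0.73, and 3 were called higher, WRKY40 (log2 fold change 1.41, SE 0.33), ERF13 (1.95, SE 0.47) and STZ (1.39, SE 0.36). Of all genes, 51.4% were positive there and 0.307% were called higher. The summed level of the 10 listed genes was 2152 to 3216 normalized counts in ago10-1 mock and 1005 to 2200 in Col-0 mock, so these sums overlapped. After BAP all 9 were again positive, as were 53.3% of all genes, with a median of 0.54 and none called. ERF13 (-2.66, SE 0.45) and WRKY40 (-1.25, SE 0.23) were called lower after BAP in ago10-1. Their part in the JAZ result was not tested.

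**Figure D3:**
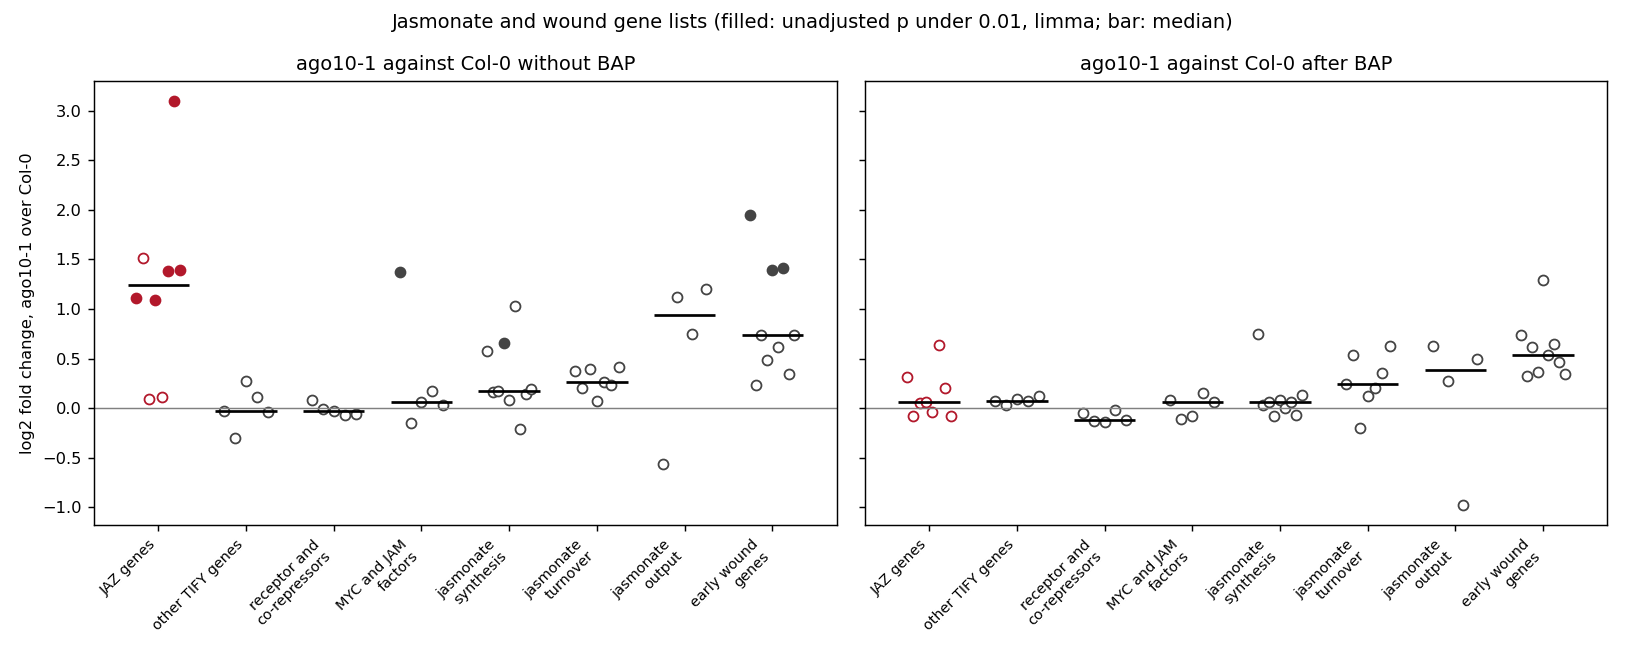
Log2 fold change of ago10-1 over Col-0 (y axis) for the tested genes of each list (x axis; 1 point per gene, bars for the median), left without BAP and right after BAP, filled where the unadjusted p from limma was under 0.01. Without BAP the drawn JAZ median is 1.25 with JAZ7, which passed the filter through its ago10-1 mock values, and 1.11 for the 7 others. The early wound genes have a median of 0.73 there. After BAP the medians are 0.06 for the JAZ genes, with or without JAZ7, and 0.54 for the early wound genes.

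Within groups, replicate 1 often stood apart, in the members as in other genes. JAZ3 and JAZ10 were lowest in replicate 1 in all 4 groups, as were 13.9% of tested genes. JAZ10 had 51.7 normalized counts in replicate 1 of ago10-1 BAP, 127 in that of ago10-1 mock, 43.8 in that of Col-0 BAP and 40.2 in that of Col-0 mock, each under the other libraries of its group. JAZ6, JAZ7 and JAZ12 were highest in replicate 1 in 3 of the 4 groups, as were 13.7% of tested genes. JAZ12 had 1331 normalized counts in replicate 1 of Col-0 BAP, against 767 and 648 in the others, and JAZ6 had 178, against 52.4 and 31.9. As a description over the 12 libraries, which share size factors and replicate numbers, Pearson's r of deviations from the group means was 0.96 for JAZ6 and JAZ12, 0.91 for JAZ3 and JAZ10, and -0.73 for JAZ6 and JAZ10, with a median of 0.32 over 28 pairs. JAZ2 had no single direction in replicate 1, being lowest there in 2 groups and highest in 1. In Col-0 it was lowest there in mock (289 normalized counts, against 359 and 373). With BAP it was highest there in Col-0 (497, against 419 and 322). Without replicate 1 of every group the interaction of JAZ2 was not called.

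**Figure D4:**
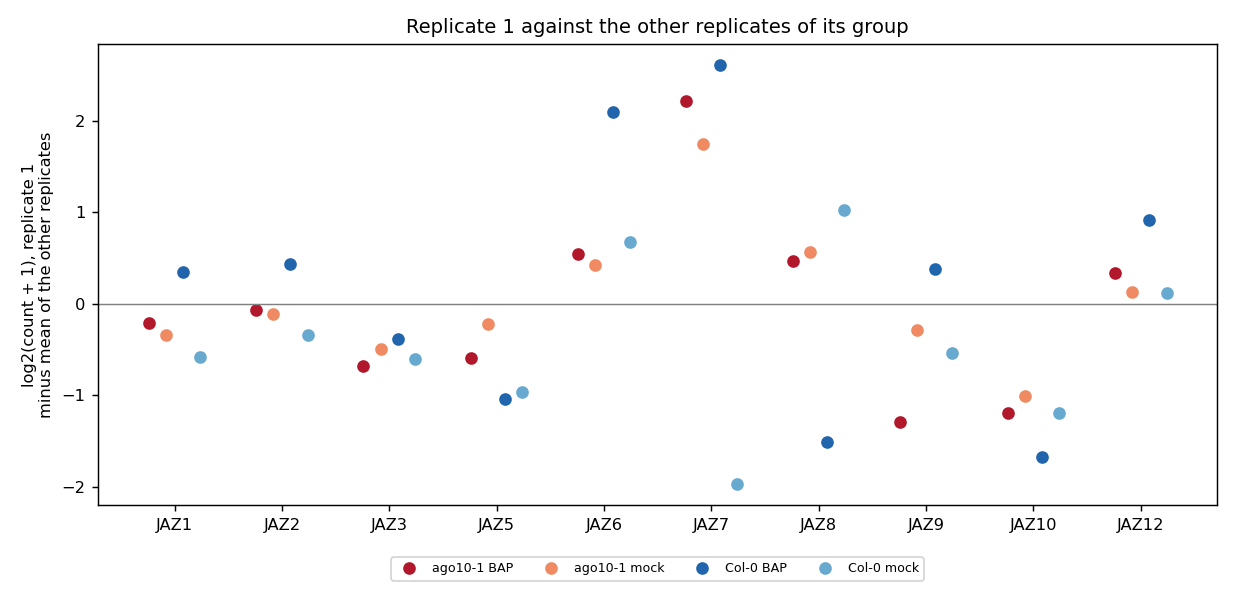
Replicate 1 minus the mean of the other replicates of its group, in log2 normalized counts plus 1 (y axis), for each JAZ gene (x axis) and group (colours). JAZ3, JAZ5 and JAZ10 lie under 0 in all 4 groups and JAZ6 and JAZ12 above it.

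The genes outside the family whose log2 profile over the 12 libraries was most like the mean standardized profile of the 8 tested members, among 16830 genes averaging 50 normalized counts or more, were GRX480 (AT1G28480), a glutaredoxin gene, with Pearson's r of 0.89, AT1G11185 with 0.85, AR781 (AT2G26530) with 0.83, HSFA6B (AT3G22830), a heat shock factor gene, with 0.82, and AT5G64550 with 0.82. GRX480 averaged 125 normalized counts in ago10-1 BAP, 167 in ago10-1 mock, 64.4 in Col-0 BAP and 31.7 in Col-0 mock.

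Over the series, 19394256 to 34899796 reads per library lay on genes (median 23987382). AGO10 (AT5G43810) had 138 to 187 normalized counts in ago10-1 mock, against 696 to 1040 in Col-0 mock (log2 fold change -2.39, adjusted p = 0.0315 from limma), and 130 to 175 in ago10-1 BAP, against 568 to 1051 in Col-0 BAP. The 5 root tip markers summed to 2905 to 4056 normalized counts in all libraries. The 6 markers of green tissue summed to 131 to 1258 and the 3 of differentiating endodermis to 5546 to 24479, the highest in Col-0 BAP replicate 1 for both, so transcripts of differentiated cells were present beside those of the meristem. The 3 root cap markers had negative log2 fold changes for the genotype without BAP (3 of 3, median -0.67), and summed to 594 to 1376 normalized counts in ago10-1 mock and 1294 to 1596 in Col-0 mock. The 3 root hair markers were negative too (3 of 3, median -0.30), with sums of 6214 to 8570 normalized counts in ago10-1 mock and 7288 to 11789 in Col-0 mock. Both pairs of ranges overlapped. No marker was called for the genotype without BAP, and the part of tissue makeup in the JAZ result was not tested.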

How the data were processed

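Per the labels and methods, the authors aligned reads with STAR, counted them per TAIR10 gene with featureCounts and normalized them with DESeq2. The deposited signal is the normalized count, reads divided by the size factor of the library. Dividing by the value of 1 read gave whole numbers for 100% of values (tolerance 1e-06), which served the count tools. Of the recovered numbers above 0, 67.5% were even in tested genes and 74.8% in the members. Those of JAZ5, JAZ6, JAZ7 and JAZ8 were even in every library. Reads may therefore not be independent fragments, and fewer fragments than reads may stand behind the low counts.

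Each comparison was fitted with limma 3.58.1 (R 4.3.3, limma-trend, two-sided) on log2(normalized count + 1) of its own 6 libraries, or of all 12 for the interaction and the mean effects, over 19206 genes averaging 10 normalized counts or more, and called at an unadjusted p under 0.01, the study's threshold. Folds are on that scale and understate the change of low genes. Alternatives were edgeR 4.0.16, DESeq2 1.42.0, other pseudocounts, filters, scalings and blocks, and each library left out.

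The members, the gene lists and the tests were chosen with earlier results of these data known. All 10 members are named, and of each other list up to 3 genes with the smallest p in any comparison. The list of jasmonate output genes held 4 tested genes. Intervals cover the spread between libraries, which the labels call biological replicates. Both Col-0 mock columns other than replicate 1 carry 1 heading and are called library A and library B. Deviations from group means correlated at 0.25 to 0.78 between same-numbered libraries of different groups (median 0.50) and at -0.72 to 0.66 between differently numbered ones (median -0.39). Deviations cancel out within a group, which by itself pulls differently numbered libraries apart, and ago10-1 BAP 2 was most like Col-0 BAP 3 (0.66). The reported fits use no block, so their errors include the spread between replicate numbers. Only alternatives took the numbers to pair the samples, with blocks by number where no Col-0 mock library enters. The pairing comes from the labels' replicate numbers. The promoter of 1 member is not reported here. Of 32833 gene IDs, 32548 matched RefSeq locus tags, and all 10 members did. Coordinates and promoters come from TAIR10.1.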

Additional observations from a re-analysis of the deposited data

Results flagged for a closer look

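The BAP response of JAZ2 differed between the genotypes by -1.03 on the log2 scale (ago10-1 minus Col-0, SE 0.25, called by limma with an adjusted p = 1), in a test of the difference itself over 12 libraries. In ago10-1 the JAZ2 groups did not overlap, with BAP lower, as for 4.59% of genes in this direction. Any pairing of those libraries therefore gives lower values after BAP. The difference ranged from -1.19 to -0.78 over its 21 alternatives and missed the threshold without replicate 1 of every group. The BAP response of JAM1 differed in the same test by -1.28 (SE 0.36, adjusted p = 1 from limma).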

How the results depend on the processing

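No member changed its direction in a comparison where it was called, in any alternative run. Results that were not called did change sign in some alternatives, 8 of 56 without replicate 1 of every group. The count of members called for BAP in ago10-1, 1 in the reported fit, was 2 with the replicate block by number (5.1% of all genes called, against 0.568% in the reported fit), 3, JAZ7 included, with the replicate block of replicate 1 against the others (2.2%), and 1 with each library left out. For BAP in Col-0 it was 0 to 2 with a library left out. For the genotype without BAP, 5 in the reported fit with JAZ7, it was 2 with no filter, 3 in the fit over all 12 libraries, and 3 to 5 with a library left out. For the interaction, 1 in the reported fit, it was 2 with the replicate block of replicate 1, and 0 to 3 with libraries left out, 0 without replicate 1 of every group. For the mean genotype effect, 2 in the reported fit, it was 4 with that replicate block, and 2 to 4 with libraries left out. With no filter, lower genes enter the spread that limma shares between genes, and the cause of the lost calls was not tested. The replicate block by number could not be fitted where Col-0 mock libraries A and B enter. JAZ5, JAZ7 and JAZ8 rest on 0 to 38 reads per library, which limits what can be seen in them. Their read numbers were all even, so fewer fragments than reads may stand behind them. With 3 libraries a group, intervals were wide for JAZ6 and JAZ10. Without a stated strand, reads of JAZ12 and its antisense neighbours cannot be told apart.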
